A study of Homo sapiens with 4 samples.

Results

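The 10 genes described here encode the enzymes that turn methionine over and that use betaine to make it again, namely BHMT, BHMT2, DMGDH, SARDH, MTR, MAT1A, MAT2A, MAT2B, GNMT and AHCY. They are 10 of 20007 protein coding genes in GENCODE release 44 (hg38). Each gene was taken as its gene body with 10 kb on either side, and every chromatin accessibility peak overlapping that window was collected. After peaks of the 4 libraries were merged where they overlapped, the windows held 45 of 80551 regions. Of these, 13 also lay in the window of a neighbouring coding gene, 4 of them in the windows of 2 of the 10 genes and 9 in the window of a gene outside the group (GGCX, VAMP8, JMY, PEX6 or DBH).

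Accessibility was measured by ATAC-seq, in which a transposase cuts open chromatin and the cut fragments are sequenced, on 50000 cells per library. HepG2 is a human liver cancer line, labelled as wild type. The 2 control libraries came from cells labelled untreated, and the 2 tazemetostat libraries from cells given 5 µM of the EZH2 inhibitor for 48 h. EZH2 is the polycomb enzyme that places a repressive methyl mark on histone H3. The sample protocol describes a DNase I step for the tazemetostat-treated cells and does not say whether the control cells had it or a vehicle, so these steps cannot be told apart from the drug. The labels do not say that replicates were separate cultures, and p-values then measure only the spread between these libraries.

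In the methionine cycle, methionine is joined to adenosine to give S-adenosylmethionine, the methyl donor of most methylation reactions, including that of histones. Giving up the methyl group leaves S-adenosylhomocysteine, which is split to homocysteine, and homocysteine is methylated back to methionine either with folate or, in liver and kidney, with betaine. Hepatocytes carry the betaine route and their own form of methionine adenosyltransferase, both of which are often reduced in liver cancer.

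The promoters that set the genes apart are shown first. Each is the 250 bases before a transcription start, written 5′ to 3′ on the strand of the gene, taken from RefSeq (GRCh38.p14), with each CG dinucleotide in capitals. All 10 genes matched the RefSeq promoter table, with 15 starts. The first 4 belong to starts with a peak in both treated libraries and none in the controls: BHMT (chr5:79111559-79111808, plus strand), GNMT (chr6:42960504-42960753, plus strand), an upstream start of SARDH (chr9:133739956-133740205, minus strand) and MAT1A (chr10:80289659-80289908, minus strand).
BHMT: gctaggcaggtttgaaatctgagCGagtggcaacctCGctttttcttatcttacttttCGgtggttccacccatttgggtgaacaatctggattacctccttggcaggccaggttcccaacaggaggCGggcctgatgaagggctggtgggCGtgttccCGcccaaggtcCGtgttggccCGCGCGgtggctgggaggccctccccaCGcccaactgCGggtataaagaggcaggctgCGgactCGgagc
GNMT: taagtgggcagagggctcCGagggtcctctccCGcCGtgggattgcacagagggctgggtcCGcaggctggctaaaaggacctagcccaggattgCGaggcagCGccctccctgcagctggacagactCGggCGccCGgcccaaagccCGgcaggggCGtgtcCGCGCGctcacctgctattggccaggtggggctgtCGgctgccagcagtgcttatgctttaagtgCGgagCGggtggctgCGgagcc
SARDH: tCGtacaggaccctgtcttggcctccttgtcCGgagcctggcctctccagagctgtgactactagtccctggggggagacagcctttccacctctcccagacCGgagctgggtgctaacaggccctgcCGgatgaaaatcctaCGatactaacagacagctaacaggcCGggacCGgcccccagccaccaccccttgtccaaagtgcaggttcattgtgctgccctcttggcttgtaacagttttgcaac
MAT1A: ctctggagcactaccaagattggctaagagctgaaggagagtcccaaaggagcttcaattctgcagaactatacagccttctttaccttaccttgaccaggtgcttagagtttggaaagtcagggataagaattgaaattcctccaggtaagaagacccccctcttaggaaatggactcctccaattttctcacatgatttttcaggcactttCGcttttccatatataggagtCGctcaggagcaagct

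For contrast, a peak was called in all 4 libraries at the starts of MTR (chr1:236795042-236795291, plus strand), MAT2A (chr2:85538918-85539167, plus strand) and AHCY (chr20:34303356-34303605, minus strand).
MTR: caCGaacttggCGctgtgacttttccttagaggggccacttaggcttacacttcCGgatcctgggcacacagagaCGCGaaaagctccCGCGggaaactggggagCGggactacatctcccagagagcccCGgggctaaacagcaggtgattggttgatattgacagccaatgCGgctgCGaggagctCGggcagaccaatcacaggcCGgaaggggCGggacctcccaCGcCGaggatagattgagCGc
MAT2A: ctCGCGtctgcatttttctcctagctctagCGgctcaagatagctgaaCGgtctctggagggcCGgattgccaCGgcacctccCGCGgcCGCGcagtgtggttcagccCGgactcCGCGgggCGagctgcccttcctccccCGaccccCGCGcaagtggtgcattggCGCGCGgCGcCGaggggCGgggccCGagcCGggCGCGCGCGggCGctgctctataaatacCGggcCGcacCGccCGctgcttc
AHCY: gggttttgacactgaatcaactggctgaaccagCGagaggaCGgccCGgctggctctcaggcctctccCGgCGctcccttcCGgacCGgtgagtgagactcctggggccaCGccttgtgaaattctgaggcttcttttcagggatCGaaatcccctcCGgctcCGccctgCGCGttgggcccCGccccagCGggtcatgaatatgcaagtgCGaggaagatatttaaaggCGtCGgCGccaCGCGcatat
The MAT2A promoter held 34 CG dinucleotides in these 250 bases and the MAT1A promoter held 2, although both genes encode the catalytic subunit of methionine adenosyltransferase.

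The values below are normalised tag counts, the tags within a peak per 10 M mapped tags of the library. Depth was 17.2 and 23.8 M mapped tags in control replicates 1 and 2 and 19.8 and 26.6 M in tazemetostat replicates 1 and 2. The share of tags inside peaks was 4.32% and 5.69% in the controls and 11.5% and 9.81% under tazemetostat, and the fragment length used by the peak caller was 200 bp for the controls and 144 bp for the treated libraries. Where a library had no peak it has no value. Per the file headers a putative 300 bp peak had to reach 14 tags (first replicates) or 16 tags (second replicates) and 4 times the tag density of the surrounding 10 kb. The lowest listed tag counts were 6.40 and 5.04 in the controls and 5.04 and 4.89 under tazemetostat, somewhat below those tag limits. A missing peak is therefore not a measurement of closed chromatin. As a check of the labelled cell type, the hepatocyte genes APOA1, APOB, TTR, SERPINA1, HNF4A and TF had a peak at the canonical start in all 4 libraries, whereas ALB, APOA2, AFP and FGB had one in none and FOXA2 had one in tazemetostat replicate 2 alone. Of 16 leukocyte, endothelial and fibroblast genes, 0 had such a peak in all libraries, and CD14 had one in tazemetostat replicate 1 alone.

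Accessible sites of the 10 genes were called more often in the treated libraries. The windows held 15 and 24 peaks in the controls, against 35 and 38 in the treated libraries. The means were 19.5 ± 6.36 and 36.5 ± 2.12 (SD, n = 2 each), a ratio of 1.87. The groups did not overlap, but the exact permutation test (two-sided, p = 0.333) cannot go lower with 2 libraries against 2. Over the whole lists the ratio was 1.80, from 26133 and 34768 peaks to 55313 and 54157.

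Of the 45 regions, 13 were called in all 4 libraries, against 20.4% of all merged regions. A further 8 had a peak in the 2 treated libraries and in no control, which is 17.8% of the 45 against 13.7% of all regions. None, 0 of 45, was called in both control libraries and in no tazemetostat library, a set that holds 0.449% of all regions. The remaining 24 comprised 8 called in both treated libraries and 1 control library, against 13.2% of all regions, and 11 in a single tazemetostat library, against 33.6%. They also held 2 in control replicate 2 alone, against 12.6% of all regions called in a single control library, and 3 in 1 library of each group, against 5.12%. Control replicate 1, the shallowest library, lacked a peak in 30 of the 45. Its whole list held 26133 peaks beside 80551 merged regions. A region called only under treatment fell in the windows of 7 of the 10 genes, all but BHMT2, MAT2B and AHCY, against 32.5% of coding genes, whereas 0 of 10 had a region called only in the controls, against 1.34%. The window of DMGDH spans 258 kb against a median of 47.5 kb over coding genes, which raises its number of regions.

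**Figure D1:**
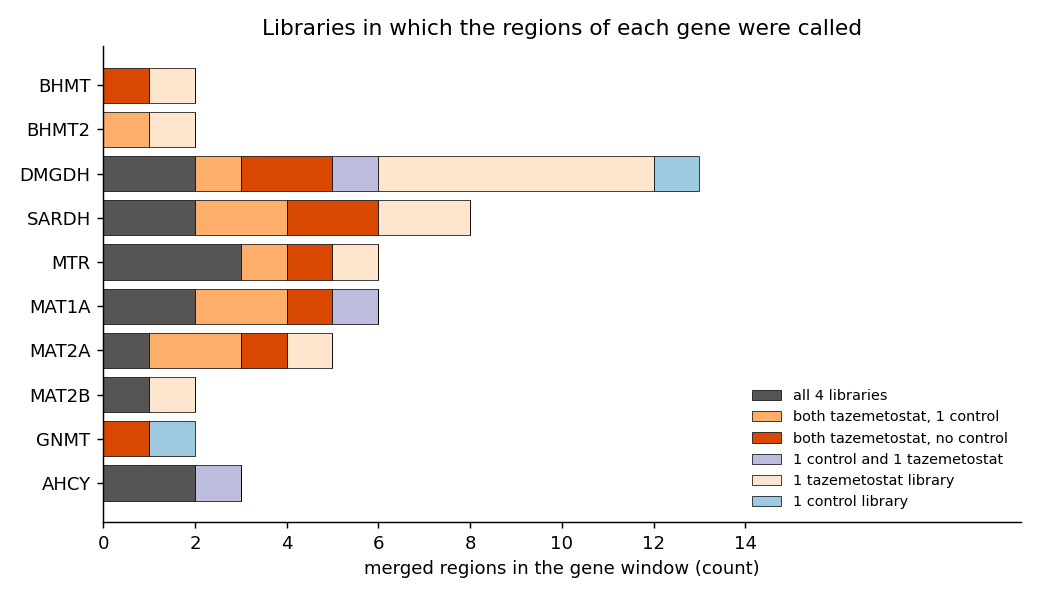
Merged regions in the window of each gene (x axis, count), coloured by the libraries that called them. DMGDH has 13 regions, 6 of them in 1 tazemetostat library alone, and the regions of BHMT, BHMT2 and GNMT include none called in all 4 libraries. A region lying in 2 windows is drawn for both genes.

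The betaine branch begins with BHMT, which moves a methyl group from betaine to homocysteine and leaves dimethylglycine. Its window held no peak in either control library and 1 and 2 peaks under tazemetostat. The region at the start (chr5:79111595-79112127) was listed at 8.06 and 7.91 under tazemetostat (replicates 1 and 2), from 16 and 21 tags. The exact Poisson 95% intervals, which cover counting error only, were 4.61 to 13.1 and 4.89 to 12.1. These are low values, since the tag limits in the headers amount to 8.14 and 6.72 per 10 M in the 2 control libraries and the lowest control values listed were 6.40 and 5.04. The pair of peaks were 300 bp each and shared 68 bp, and their folds over the surrounding 10 kb were 4.17 and 4.24, just above the required 4. The tazemetostat replicate 2 peak (chr5:79111827-79112127) began 18 bp after the start, so it covered none of the bases shown above. In the controls the nearest called peak lay 80787 and 41896 bp from the BHMT start. An intronic region downstream of BHMT was called in tazemetostat replicate 2 alone, at 5.65.

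BHMT2 methylates homocysteine with S-methylmethionine, and DMGDH, in mitochondria, removes the next methyl group, turning dimethylglycine into sarcosine. Their canonical starts lie back to back on chromosome 5, at 79069767 and 79069674, under 1 region (chr5:79069167-79069978). It was not called in control replicate 1 and stood at 19.7 in control replicate 2, against 17.6 and 16.2 with the drug. The only control value was thus above both treated values, and control replicate 1 gave no value to compare. Downstream of BHMT2, in an intron of the long DMGDH transcript, a peak was called in tazemetostat replicate 2 alone (10.9).

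The DMGDH gene body in GENCODE reaches past BHMT2 and BHMT to the JMY gene because of 1 long transcript, so the BHMT start also lies in a DMGDH intron. The region of the DMGDH window with the highest tag count in both treated libraries was an internal promoter (chr5:79030472-79031717). It lies 38.6 kb inside the gene from the canonical start. It was listed at 7.56 and 15.5 in the controls and at 34.3 and 32.4 with treatment, without overlap. In tazemetostat replicate 1 it was split into 2 peaks, summed here, and it was not tested. The start of the long transcript was higher in control replicate 1 (9.89), and the canonical start in control replicate 2 (19.7). The region at the start of the long transcript, shared with JMY (chr5:79235683-79236277), was listed at 9.89 and 12.2 in the controls and at 20.7 and 18.4 under tazemetostat. Between BHMT2 and BHMT, a region at chr5:79101288-79101668 was called only under tazemetostat, at 11.1 and 7.15. It stood 9.95 and 12.29 times above its surroundings, the sharpest of the 8 regions of that kind. The other 8 regions of the DMGDH window were called in 1 or 2 libraries at 5.65 to 10.9, among them 1 in control replicate 2 alone at 6.72.

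**Figure D2:**
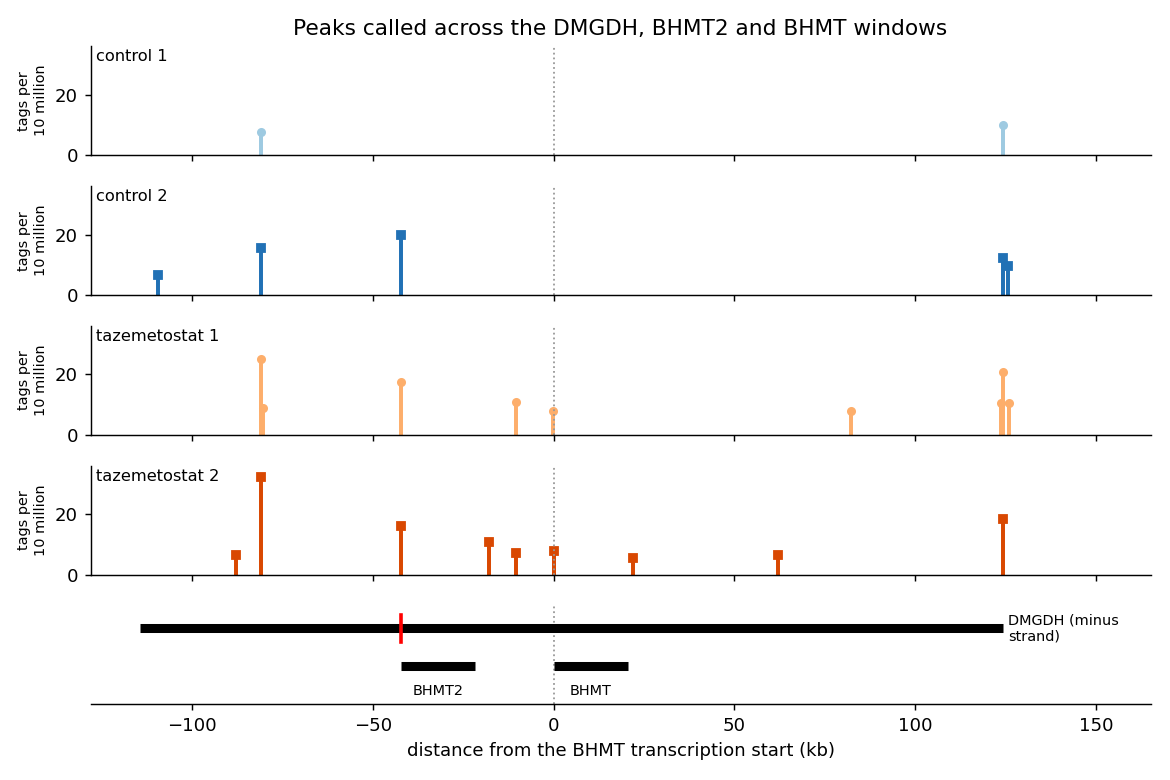
Normalised tag count of each called peak (y axis, tags per 10 M mapped tags) against its distance from the BHMT transcription start (x axis, kb) in the 4 libraries. Black bars are gene bodies and the red tick is the canonical DMGDH start. No control peak lies at 0, where tazemetostat replicates 1 and 2 reach 8.06 and 7.91, whereas the peak at the paired BHMT2 and DMGDH starts is of similar height in control replicate 2 and both treated libraries.

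SARDH oxidises sarcosine to glycine in mitochondria and closes the branch. It has a canonical start and an upstream one 1.6 kb away. The canonical start region (chr9:133737970-133738561) was not called in control replicate 1 and was listed at 20.6 in control replicate 2, against 41.3 and 33.9 in treated cells. The upstream start region (chr9:133739725-133740266) was called only under tazemetostat, at 33.3 and 27.1, with folds of 5.15 and 5.00. The treated values at the canonical start thus lay above the single control value, and the upstream start had no control value to compare. An intronic region (chr9:133716174-133716575) was likewise called only under tazemetostat, at 28.7 and 18.1, with folds of 4.01 and 4.37. The highest region of the window, in an exon of the neighbouring gene DBH, was called in all libraries at 19.8 and 38.7 in the controls and 54.9 and 41.8 under tazemetostat. The region 7.4 kb upstream of the canonical start gave 16.9 and 16.0 against 30.7 and 31.6, with little spread within either group. One more intronic region was called in control replicate 1 (18.6) and both treated libraries (31.7 and 25.6), and the 2 intronic regions called in tazemetostat replicate 1 alone stood at 10.6 and 11.1.

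MTR, methionine synthase, remethylates homocysteine with methyltetrahydrofolate and does not need betaine. Its start region (chr1:236794797-236795621) was called in every library, at 16.9 and 35.7 in the controls and 53.9 and 55.0 under tazemetostat. The means were 26.3 ± 13.3 and 54.5 ± 0.778 (SD, n = 2 each), so most of the spread lay between the controls. Inside the gene, an intronic region 49.5 kb from the start was the highest of the window, at 39.0 and 49.6 against 62.5 and 58.7. A second one, 67.6 kb in, gave 18.0 and 21.4 against 35.8 and 36.1, and less than 1 kb before it a small region was called only under tazemetostat (9.07 and 7.91). The other 2 regions were called in both tazemetostat libraries and control replicate 2 (7.14 against 16.6 and 18.1) and in tazemetostat replicate 2 alone (5.65).

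The next step, the joining of methionine to adenosine, is carried out by MAT1A in adult hepatocytes and by MAT2A in most other and in dividing cells, with MAT2B as the regulatory subunit of MAT2A. The 2 catalytic genes differed at their starts. The MAT1A start region (chr10:80289548-80290224) was called only under tazemetostat, at 30.7 and 13.2, with folds of 4.81 and 4.06. The MAT2A start region, which ends just upstream of the start (chr2:85538510-85539157), was called in all libraries, at 17.5 and 17.2 in the controls and 26.2 and 29.0 under tazemetostat. The MAT1A peaks were 662 and 300 bp long in the 2 treated libraries, so their tag counts cover unequal lengths.

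MAT1A was not without accessible sites in the controls. An intronic region 7.6 kb inside the gene (chr10:80281603-80282443) was called in all libraries, at 14.5 and 20.2 against 33.8 and 38.8. A region past the 3′ end gave 14.0 and 21.4 against 28.2 and 29.0. A region over an exon was called in control replicate 1 (13.4) and both treated libraries (38.3 and 26.0), and a region 1.4 kb upstream in control replicate 2 (13.0) and both treated libraries (28.2 and 29.4). In each of these 4 regions the treated values exceeded the control values that were called. The last region of the window was called in control replicate 2 (11.3) and tazemetostat replicate 2 (14.7).

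Around MAT2A, a region 1.3 kb upstream was called in control replicate 2 (21.8) and both treated libraries (23.2 and 22.2), values close to each other. A region in an exon of GGCX, the neighbouring gene for vitamin K dependent carboxylation, was called only under tazemetostat (14.1 and 12.4), and the GGCX promoter region gave 11.3 in control replicate 2 against 16.6 and 15.4. Both lie downstream of MAT2A. A weak upstream region was called in tazemetostat replicate 2 alone (9.41). The MAT2B start region (chr5:163505335-163506088) was called in all libraries, at 13.4 and 31.5 in the controls and 52.9 and 35.8 under tazemetostat, and a second MAT2B promoter in tazemetostat replicate 2 alone (10.2).

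GNMT uses S-adenosylmethionine to methylate glycine to sarcosine and removes the excess of the methyl donor in liver. Its start region (chr6:42960309-42960925) was called only under tazemetostat, at 31.2 and 32.4, from 62 and 86 tags, with intervals of 24.0 to 40.1 and 25.9 to 40.0. Per kb of peak these are 57.8 and 52.6, about 2 times the 26.9 and 26.4 of the BHMT start. Its folds over the surroundings were 4.01 and 4.25, close to the required 4, while its tags were far above the 14 and 16 of the headers. The nearest control peaks lay 18308 and 8345 bp away, the second being a 300 bp peak in control replicate 2 at 6.72.

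AHCY, which splits S-adenosylhomocysteine, was accessible in all libraries at its canonical start (chr20:34302857-34303556), at 19.2 and 39.5 in the controls and 55.4 and 48.6 under tazemetostat. The region next to its upstream start (chr20:34311153-34311787) gave 40.7 and 36.1 against 69.0 and 51.9. Per kb of peak its 112 in tazemetostat replicate 1 was the highest value in the windows. The last region was called in control replicate 2 (18.9) and tazemetostat replicate 2 (38.0).

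Taking the outer end of the gene body as the start, 3 of the 10 genes (DMGDH, MAT2A and MTR) had a peak within 250 bases before to 50 after it in all libraries, against 24.9% of coding genes. With the canonical transcript start the count was 4 (MAT2A, MAT2B, AHCY and MTR), against 28.7%. At the canonical start, 3 genes (BHMT, MAT1A and GNMT) had a peak in both tazemetostat libraries and in no control library, against 5.4% of coding genes. The other 3 (BHMT2, DMGDH and SARDH) lacked one in control replicate 1 alone.

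**Figure D3:**
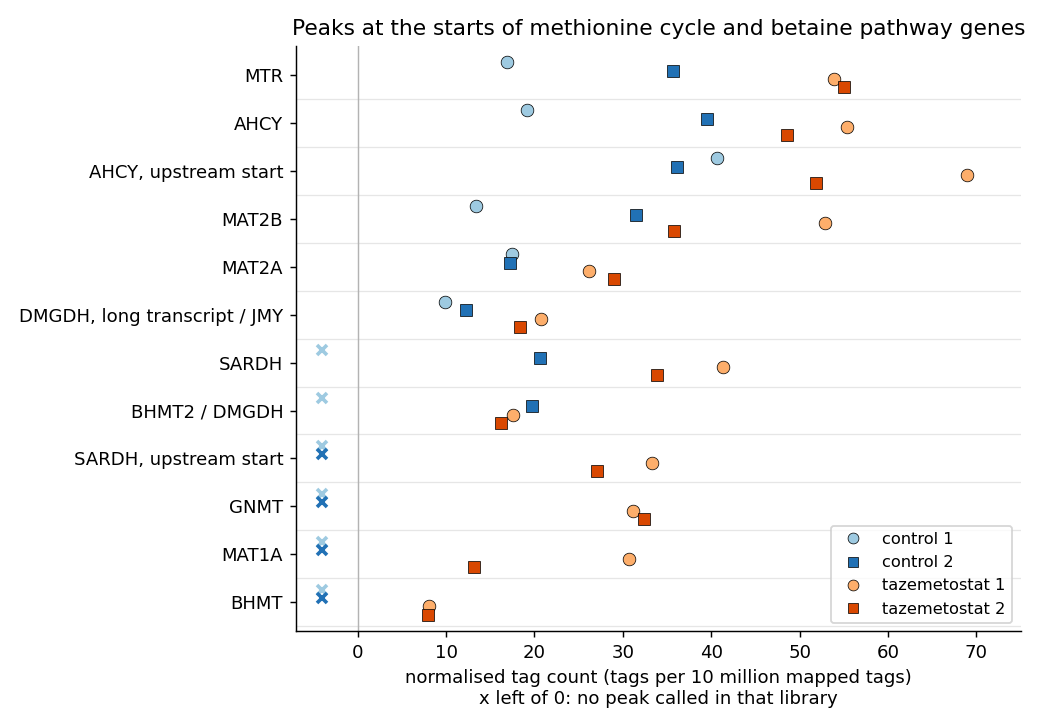
Normalised tag count (x axis, tags per 10 M mapped tags) of the region at each start in the 4 libraries, with a cross left of 0 where no peak was called. The 6 upper rows were called in every library with both treated values above both controls. At BHMT2 / DMGDH the only control value lies above both treated values. The rows of BHMT, MAT1A, GNMT and the upstream SARDH start, the 4 lowest, have treated values of 7.91 to 33.3 and no control peak.

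Most regions called only under treatment stood little above their surroundings. Of the 8, 6 had their lower fold below 5, against 42.7% of all 11044 regions of that kind. A low fold was not particular to them. The lowest fold of the 13 regions called in all 4 libraries ran from 4.01 to 9.01. Over all regions its median was 4.78 for those called in all 4 libraries and 5.39 for those called only under treatment. In tag count, 5 of the 8 exceeded the median of 10.7 over all regions called only under treatment. Per kb of peak they ran from 23.8 at the DMGDH intron to 75.3 at the SARDH intron. The 11 regions in a single tazemetostat library ranged from 5.65 to 11.1 in tag count. Among the 8 called in both treated libraries and 1 control library, both treated values exceeded the control value in 7, all but the BHMT2 and DMGDH start, against 73.3% of all regions called in that combination.

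To compare tag counts where every library gave a value, limma was run on log2(normalised tag count + 1) over the 15383 regions with exactly 1 peak per library, 12 of them in the windows. On this scale, which understates changes of low values, 7 of the 12 rose and 0 fell at a Benjamini-Hochberg adjusted p of 0.05, against 42.7% of all tested regions called higher and 0.247% called lower. Both treated values lay above both control values in 12 of 12, against 81.6% of all tested regions. The median log2 difference was 0.81 (range 0.45 to 1.11), beside 0.70 over all regions. The differences of the 12 regions thus lay around the median of the whole list.

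On this scale the MTR start had the largest difference, 1.11 ± 0.33 (SE, adjusted p = 0.0184). It was followed by the MAT2B start at 1.04 ± 0.35 (adjusted p = 0.0280) and the MAT1A intron at 1.04 ± 0.30 (adjusted p = 0.0170). The canonical AHCY start (0.89, adjusted p = 0.0390) and the region upstream of SARDH (0.88, adjusted p = 0.0264) also passed. So did the intronic MTR region 67.6 kb in (0.84, adjusted p = 0.0316) and the start of the long DMGDH transcript shared with JMY (0.78, adjusted p = 0.0424). The MAT2A start did not pass, at 0.64 ± 0.29 (adjusted p = 0.0748), nor did the upstream AHCY start (0.63, adjusted p = 0.0832). The DBH exon (0.77, adjusted p = 0.0612), the region past MAT1A (0.69, adjusted p = 0.0666) and the intronic MTR region 49.5 kb in (0.45, adjusted p = 0.186) also missed the threshold. Starts and distal regions were thus found on both sides of the threshold. Several of these differences rested on control replicate 1. Without it the MTR start stood at 0.60 (adjusted p = 0.166), the MAT2B start at 0.45 (adjusted p = 0.280) and the AHCY start at 0.39 (adjusted p = 0.355), and the region upstream of SARDH, at 0.92 (adjusted p = 0.0387), was the largest and the only one called. Per kb of peak and in edgeR with the mapped tags the MAT1A intron (0.74 and 1.05) stood above the MTR start (0.73 and 1.02).

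These calls depend on how the libraries are scaled. With each library centred on its median, 0 of the 12 were called and 4 had a negative difference (range -0.31 to 0.35), and edgeR with TMM scaling and DESeq2 likewise called 0, with 5 and 4 negative. Over all regions the counts higher and lower were 6569 and 38 on the deposited scale, 0 and 0 after centring (468 and 1188 at an unadjusted p under 0.05), 23 and 174 with TMM and 3 and 103 with DESeq2. With either tazemetostat replicate left out limma called 0 of the 12, and 0 of all regions, with 3238 and 5977 regions higher and 39 and 32 lower at an unadjusted p under 0.05. Peaks of the 12 regions were also longer under treatment, with medians of 460 and 537 bp in the controls and 645 and 628 bp under tazemetostat, and per kb of peak 4 of the 12 were called. The part of peak length, fragment length and the share of tags in peaks in these differences was not tested.

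**Figure D4:**
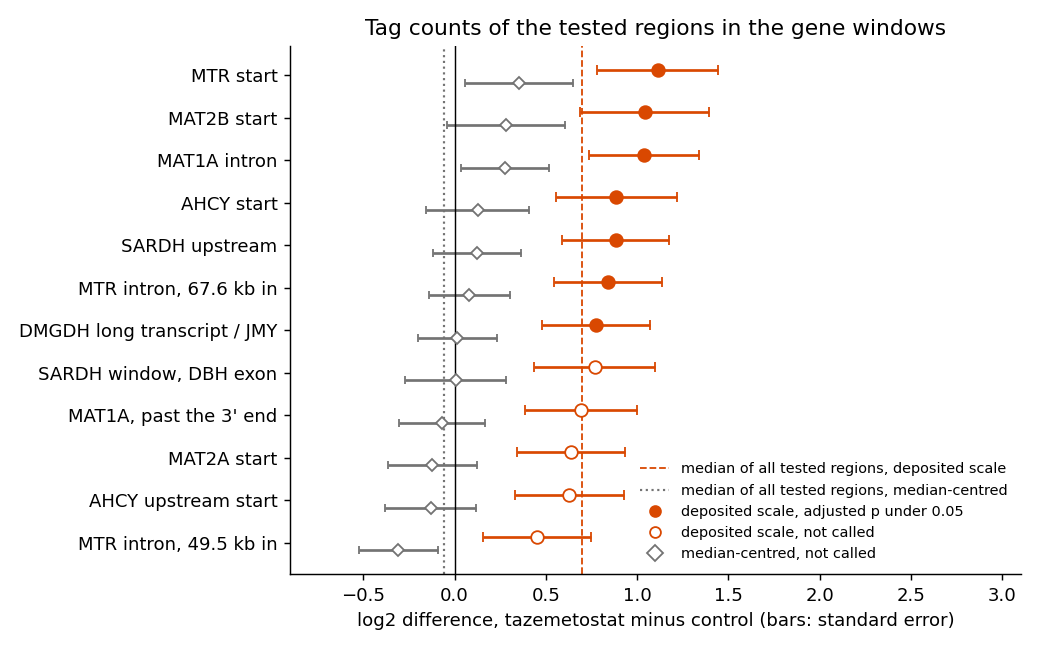
log2 difference (x axis, tazemetostat minus control, bars are SE) of the 12 regions tested by limma, on the deposited scale (circles, filled where the adjusted p was under 0.05) and after median centring (diamonds). On the deposited scale the regions lie at 0.45 to 1.11 around the median of all regions, 0.70, and after centring at -0.31 to 0.35 with 0 called.

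The promoters shown above differed in CG content. Across the RefSeq promoter windows of 300 bases (250 before to 50 after the start), the observed over expected CG ratio was 0.76 to 1.14 at the 6 starts of the 10 genes with a peak in all libraries (MTR and AHCY with 2 starts each, MAT2A and MAT2B). It was 0.17 to 0.73 at the 4 starts with a peak only under tazemetostat, being 0.73 for BHMT, 0.68 for GNMT, 0.32 for the upstream SARDH start and 0.17 for MAT1A. The 2 ranges did not overlap, but this rests on where the windows end. The window of the upstream AHCY start (ratio 0.59) begins at chr20:34311753. The control replicate 1 peak of the region there (40.7) ends at 34311750, so that start was not counted as having a peak in all libraries. With it counted there, the ranges would overlap. Over all 21613 coding promoters the medians were close, 0.85 for starts open in all libraries (n = 5861) and 0.84 for those with a peak only under tazemetostat (n = 1104). The share with a peak only under tazemetostat was 2.23% of promoters with a ratio below 0.4 and 7.05% of those at 0.8 or more. No peak in any library was called at 86.8% and 26.7% of these promoters, and of those with a peak 16.9% and 9.63% had it only under tazemetostat, so the order of the 2 groups depends on whether promoters without a peak are counted. Of the remaining starts, those without a control replicate 1 peak inside the window, the upstream AHCY start among them, lay at 0.45 to 0.82. A MAT2B start with no peak inside its window lay at 0.11. That window ends at chr5:163503113, and the tazemetostat replicate 2 peak of the second MAT2B promoter (10.2) begins just past it, at 163503174.

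Short sequence motifs were searched on both strands of the same windows. TATAAA, the TATA box, was found at BHMT and MAT2A and in 9.45% of all promoters. CCAAT was found in 6 of the 15 windows, at GNMT, MAT1A, MAT2A, MAT2B and MTR, and in 34.9% of all. GGGCGG, the GC box, was found in 10 of 15 and in 56.8% of all. It occurred at BHMT, BHMT2, DMGDH, AHCY, MAT2A, MTR and the canonical starts of SARDH and MAT2B. GNMT, MAT1A and the upstream starts of SARDH, AHCY and MAT2B lacked it. CAAAGTCCA or CAAAGTTCA, letters typical of sites of the hepatocyte factor HNF4, was found in 0 of 15 and in 0.611% of all promoters. These matches describe letters and not bound sites.

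**Figure D5:**
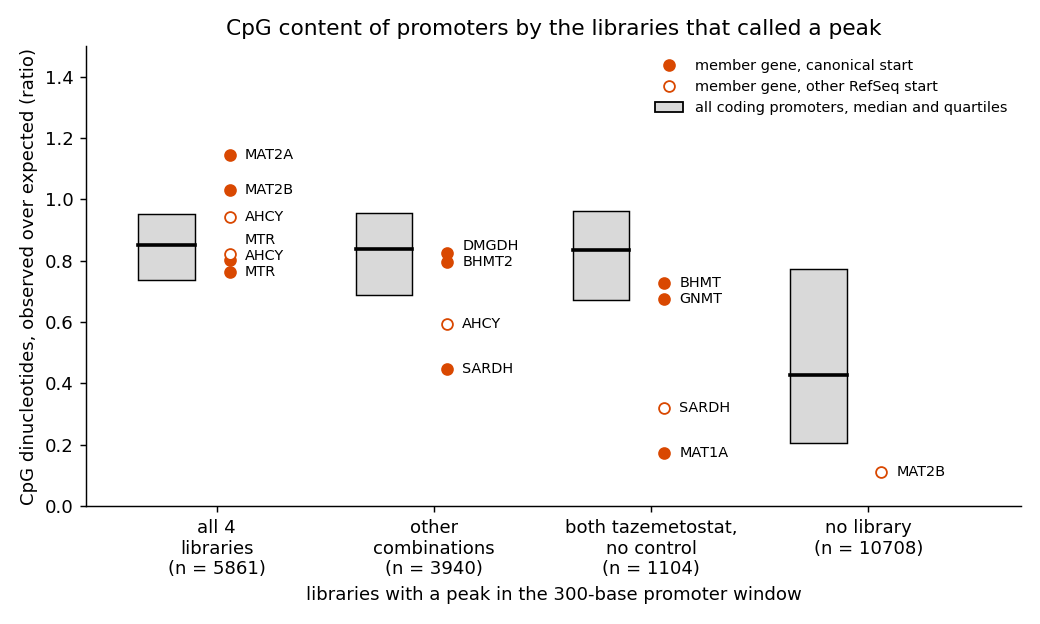
Observed over expected CG ratio (y axis) of promoter windows by the libraries with a peak there (x axis). Grey boxes give the median and quartiles of all coding promoters and orange points the starts of the 10 genes (filled, canonical). The 6 points with a peak in all libraries lie at 0.76 to 1.14 and the 4 with a peak only under tazemetostat at 0.17 to 0.73.

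The 34 genes that feed or drain the cycle were taken in 5 lists. A peak at the canonical start was called in all libraries for 20 of them, against 28.7% of coding genes, being 3 of 6 genes of betaine and choline supply, 4 of 9 of the folate cycle, 4 of 4 partners of MTR, 3 of 4 of sarcosine and glycine metabolism, and 6 of 11 that use or remove S-adenosylmethionine and its products. In 2 of the 34 the start had a peak in both treated libraries and in no control, a share near the 5.4% of all coding genes. These were ALDH1L1, which oxidises formyltetrahydrofolate (27.2 and 12.8), and MRI1, of the methionine salvage pathway (10.6 and 9.03). The reverse was seen at CHDH, the mitochondrial enzyme that makes betaine aldehyde from choline, whose start (chr3:53846251-53846688) was called in control replicates 1 and 2 at 12.8 and 15.5 and in no tazemetostat library. The folds of that region were 4.14 and 4.11, again just above the required 4.

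Regions called only under treatment lay in the windows of 15 of the 34 genes, against 32.5% of coding genes, and a region called only in the controls in the window of CHDH alone. Besides ALDH1L1 and MRI1 these were PEMT, which makes choline as phosphatidylcholine, SLC6A12, a betaine transporter, TYMS, LMBRD1, PIPOX, a peroxisomal sarcosine oxidase, NNMT, which methylates nicotinamide, ADK, AHCYL1, AHCYL2, AMD1, MTAP, ADI1 and ENOPH1. The list of 11 users and removers held 9 of the 15 and the folate list 2.

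Of the 27 start regions of these genes 17 had 1 peak in every library. In limma 7 rose and 0 fell, which is close to the 42.7% called higher among all tested regions, with a median log2 difference of 0.75, beside 0.70 over all tested regions, and with TMM scaling 0 were called. The largest differences were those of AHCYL2, related to AHCY (1.34 ± 0.31, adjusted p = 0.00844), LMBRD1, a lysosomal cobalamin exporter (1.29 ± 0.30, adjusted p = 0.00912), and ALDH7A1, which oxidises betaine aldehyde (1.07 ± 0.33, adjusted p = 0.0211). The smallest that passed were those of MTHFD1 (0.82, adjusted p = 0.0344), ADK (0.93, adjusted p = 0.0379) and MMADHC (1.02, adjusted p = 0.0198). MTRR, the reductase that keeps MTR active, was chosen here after its values were seen. Its start gave 20.4 and 22.7 in the controls and 27.2 and 16.9 in treated cells, a difference of -0.00 ± 0.31 (adjusted p = 0.992) beside 1.11 at the MTR start, and the contrast between the 2 was not tested.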

How the data were processed

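The data were 4 ATAC-seq peak lists of HepG2 cells, 2 control and 2 tazemetostat, grouped and numbered by their titles. According to labels and methods, trimming used Trim Galore 0.6.6, alignment to hg38 Bowtie2 2.3.5.1, and peak calling, library by library, HOMER 4.11.1, at a false discovery rate of 0.001 per the file headers. Whether tags were shifted for the transposase was not given in the sources used here. The deposited normalised tag count, a signal, is per 10 M mapped tags. The deposited score, whole numbers read as a count, has no stated meaning after peaks were stitched and was not used. The deposited ratio is the fold over the local background. The deposited p-value columns were not used. Normalised values times depth gave whole tags within 0.25 in 100% of peaks.

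Peaks overlapping by at least 1 bp were merged. limma 3.58.1 used a pseudocount of 1, no block and Benjamini-Hochberg adjustment. edgeR 4.0.16 and DESeq2 1.42.0 were run on whole tags in R 4.3.3, and the 299 regions to which DESeq2 gave no adjusted p were left so. On simulated data with 200 of 15383 regions changed 3-fold, limma recovered 93.0%, edgeR with TMM 93.5% and DESeq2 67.5%. In the real data 95.4% of the 15383 regions had a positive difference in limma on the deposited scale. The simulation changed only 200 regions, so its rates cannot tell how well smaller changes, or changes shared by most regions, are recovered. Named are all 10 genes, with each library's value for regions at a start, in a set separating the groups or among the 3 highest of a gene. Of the pathway lists, named are those past the threshold with the 3 largest or 3 smallest differences, or with a region called in 1 group only. Genes and lists were chosen with earlier results of these data known. Precision is limited by 17.2 to 26.6 M mapped tags per library, and intervals cover counting error only. Of the hepatocyte marker list, 1 gene is not reported here.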

Additional observations from a re-analysis of the deposited data

How the results depend on the processing

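The count of 8 regions called only under tazemetostat was 7 with a 50% overlap (the BHMT start was lost), 8 with windows of 2 kb, 5 (4 of the 8 and 1 other) with equal numbers of peaks per library and 2 (1 of the 8) at a local fold of 8. It ranged from 10 to 15 with 1 library left out. Leaving out a library loosens the definition of each set counted here, so these counts can rise but hardly fall. No region was called only in the controls except 2 without control replicate 1 (range 0 to 2). Regions called in all libraries numbered 1 at a local fold of 8, and 13 to 19 with 1 library left out. The difference of 17 peaks per library was 4 at a local fold of 8 and 8 with equal numbers of peaks, and 12.5 to 21.5 with 1 library left out. Genes with a start peak in all libraries numbered 0 at a local fold of 8, 5 with any transcript start and 3 to 5 with 1 library left out. The canonical start, an alternative chosen after seeing the data, gave 4.

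For the 12 tested regions, the 7 called higher were 0 after median centring, 0 with TMM, 0 with DESeq2, 4 per kb of peak, 7 with a pseudocount of 0.5, 6 of 11 with a mean tag count of at least 20, and 9 in edgeR with the libraries' mapped tags. They were 0 to 9 with 1 library left out, namely 1 without control replicate 1, 9 without control replicate 2 and 0 without either tazemetostat replicate. None was called lower under any setting, and 0 was the count in each. The median log2 difference of 0.81 was 0.0479 after centring, 0.452 per kb, 0.0912 with TMM and 0.109 with DESeq2, and 0.62 to 0.97 with 1 library left out. Negative differences arose for the intronic MTR region 49.5 kb in (-0.307, -0.266 and -0.261 with centring, TMM and DESeq2) and the upstream AHCY start (-0.131, -0.0662 and -0.0768). They also arose for the MAT2A start (-0.122, -0.0279 and -0.0352), the region past MAT1A (-0.0688, -0.0272 and -0.0167) and the DBH exon (-0.0250 with TMM). Deviations of same-numbered libraries from their group means had a correlation of -0.0025 over 15383 regions. With 2 libraries per group this is a single value, and it cannot show whether same-numbered libraries were handled together. With a replicate block 5 of 12 and 5046 of all regions were called higher, without the intronic MTR region 67.6 kb in and the long DMGDH transcript. Counts over all regions were 6569 higher and 38 lower on the deposited scale, 5063 and 40 per kb, 7455 and 52 in edgeR with mapped tags, 3237 and 36 without control replicate 1, and 0 without either tazemetostat replicate. The cause of these changes was not tested, except that fewer libraries entered the fits that left one out. Depth limits the weakest regions most, since the peaks at the BHMT start rest on 16 and 21 tags.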
